A study of Mus musculus with 12 samples.

Results

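Plasma cells in the bone marrow secrete antibody, and some of them live for months without dividing. Here the plasma cells marked longest before sorting were set against the unmarked plasma cells of the earlier time point: 3 libraries of human CD4+ (marked) cells sorted 270 days after tamoxifen, and 3 libraries of human CD4- (unmarked) cells sorted 60 days after it. These are 6 of the 12 libraries of the series, chosen by their labels and not by any measured value. The day 270 marked cells came from bone marrow of BLTcre.mcl1fl/+ mice of the C57BL/6 strain, with the human CD4 reporter switched on by tamoxifen. By their labels, the day 60 unmarked cells came from the same tissue, strain and genotype, without the reporter on their surface. Every group therefore carries mcl1fl/+, the conditional allele of a Bcl2-family survival gene, and none of the 4 groups has 2 unaltered Mcl1 alleles by its label. The promoter that drives the Cre, the share of cells it marks, the sort gates, and the age and sex of the mice were not stated in the material at hand. The comparison changes day and marking together, so the part of each cannot be told apart from these 6 libraries alone. Marking goes with Cre activity, and whether the Cre also recombined mcl1fl in marked or unmarked cells is not given. Any difference in Mcl1 alleles between the groups therefore cannot be told apart from marking either. The other 2 groups, day 270 unmarked and day 60 marked cells, also with 3 libraries each, are used for the shared estimate of spread and as values side by side.

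As background, a B cell that becomes a plasma cell loses most of its antigen-presenting and B cell receptor machinery, stops dividing and builds a large endoplasmic reticulum for antibody secretion. The factors Irf4, Prdm1 and Xbp1 hold this state, and survival in the marrow depends on Mcl1 and on signals through the receptor Tnfrsf17 (BCMA). Plasmablasts and recently made plasma cells still carry traces of the B cell stage, such as MHC class II on the surface, and may still divide.

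Expression was given as CPM, in which a library's reads are scaled to a fixed total, for 14219 genes. Of these, 12704 had enough reads to be tested. Differences are given as the log2 fold change of log2(CPM + 0.5), day 270 marked minus day 60 unmarked, with its standard error (SE). Because of the added 0.5, they understate the change of genes with low levels. A gene was called, and is said here to have risen or fallen, when limma's moderated test gave it a Benjamini-Hochberg adjusted p under 0.05 over all tested genes. All adjusted p-values below are from that test unless another is named.

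The libraries held 15943547, 7449468 and 9241982 reads in day 270 marked cells (replicates 1, 2 and 3), against 11394478, 11648550 and 14531419 reads in day 60 unmarked cells. The day 270 marked libraries resembled each other less: their pairwise correlations across genes were 0.848 to 0.896, against 0.948 to 0.955 among the day 60 unmarked libraries. In the second day 270 marked library, 30.4% of reads lay on ribosomal-RNA-like features, against 0.273% to 3.19% in the other 5 libraries. Genes that dropped out also differed in number. Of 7805 genes with a mean of at least 10 CPM in the 2 groups that were not compared, 1, 48 and 18 had no read in the 3 day 270 marked libraries, against 1, 0 and 1 in the day 60 unmarked libraries. No immunoglobulin chain gene is in the table. In a check of the plasma cell label, Jchain, Sdc1, Tnfrsf17, Prdm1, Irf4 and Xbp1 had reads in all 6 libraries.

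A small part of the transcriptome differed. Day 270 marked cells had 101 genes higher and 95 genes lower than day 60 unmarked cells, which is 0.795% and 0.748% of the 12704 tested genes, or 1.54% together. With library totals that left out Jchain and a list of non-coding features, the split was 74 higher and 136 lower. At an unadjusted p under 0.05 there were 1826 genes, 670 of them higher (5.27%) and 1156 lower (9.1%). The falls included MHC class II genes, B cell receptor genes, cell division genes and a set of surface receptors. The rises included Ly6 family genes, metallothioneins, lysosomal genes and globins, with Slpi and Slc12a2 among the most abundant. A difference of at least 2-fold was seen in 91 of the rises and 93 of the falls, and one of at least 4-fold in 53 rises and 63 falls. The rises included more abundant genes: 32 of the 101 had a mean of at least 100 CPM in day 270 marked cells, while 17 of the 95 falls had such a mean in day 60 unmarked cells. The falls included more scarce genes: 39 of the 95 were under 10 CPM in day 60 unmarked cells, while 14 of the 101 rises were under 10 CPM in day 270 marked cells. In 51 of the 95 falls at least 1 day 270 marked library had no read, and in 15 of the 101 rises at least 1 day 60 unmarked library had none. Over all tested genes the median log2 fold change was -0.11 (quartiles -0.50 and 0.21), with 59.5% negative and 40.5% positive. Without day 270 marked replicate 2 the median was 0.05. Counts in the gene lists below are to be read beside these shares and the 0.795% and 0.748% called higher and lower. As these are bulk samples, fewer cells of a type and less RNA per cell cannot be told apart, here and in the results that follow.

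**Figure D1:**
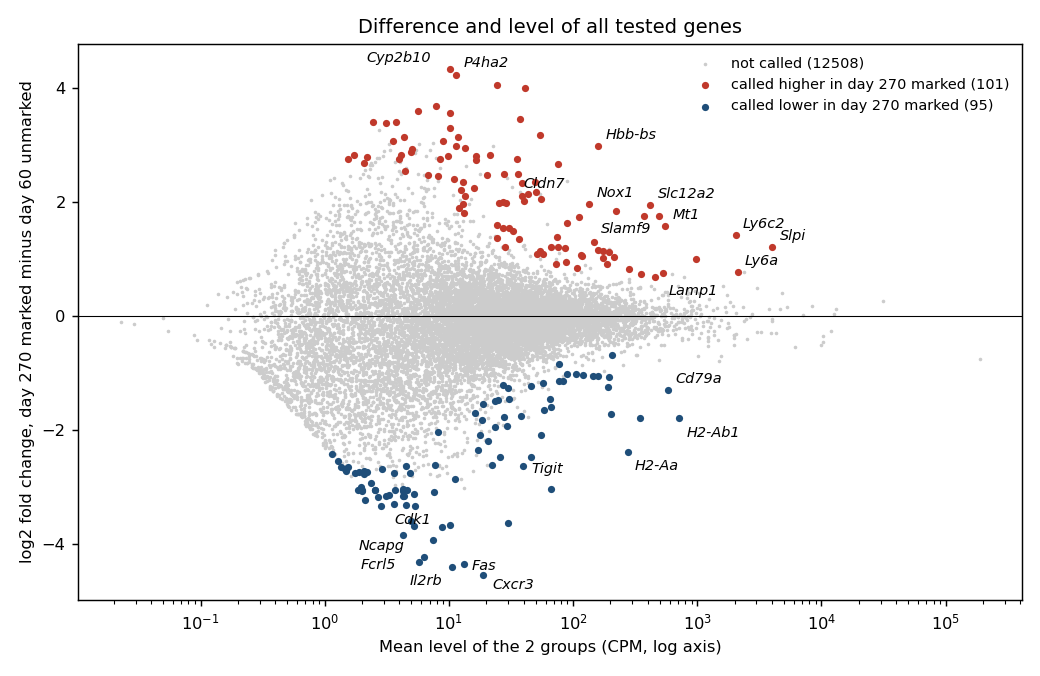
Each point is 1 of the 12704 tested genes, by the mean level of the 2 groups (CPM, log axis) and the log2 fold change of day 270 marked minus day 60 unmarked cells. Red points are the 101 called rises and blue points the 95 called falls. Among genes over 100 CPM, Slpi, Ly6c2, Ly6a, Mt1 and Slc12a2 lie above the line, and H2-Ab1, H2-Aa and Cd79a below it.

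How many genes passed depended on which libraries entered the fit. Fitted on the 6 compared libraries alone, limma called 5 genes higher and 2 lower, with 1236 genes at an unadjusted p under 0.05. The 5 were the chloride transporter Slc12a2, Mt2, Nox1, Slamf9 and Clic5, and the 2 were H2-Ab1 and H2-Eb1. Clic5, a chloride intracellular channel family member, lies outside the naming rule. Without any 1 of the 3 day 60 unmarked libraries the calls dropped to 81 higher and 34 lower (without replicate 1), 45 and 30 (without replicate 2), and 30 and 21 (without replicate 3). Without day 270 marked replicate 1 there were 156 higher and 417 lower, and without its replicates 2 and 3 together, the libraries with the most dropped-out genes, there were 17 higher and 23 lower. Of the 196 calls, 43 held with each of the 6 libraries left out in turn, 24 of them higher and 19 lower.

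**Figure D2:**
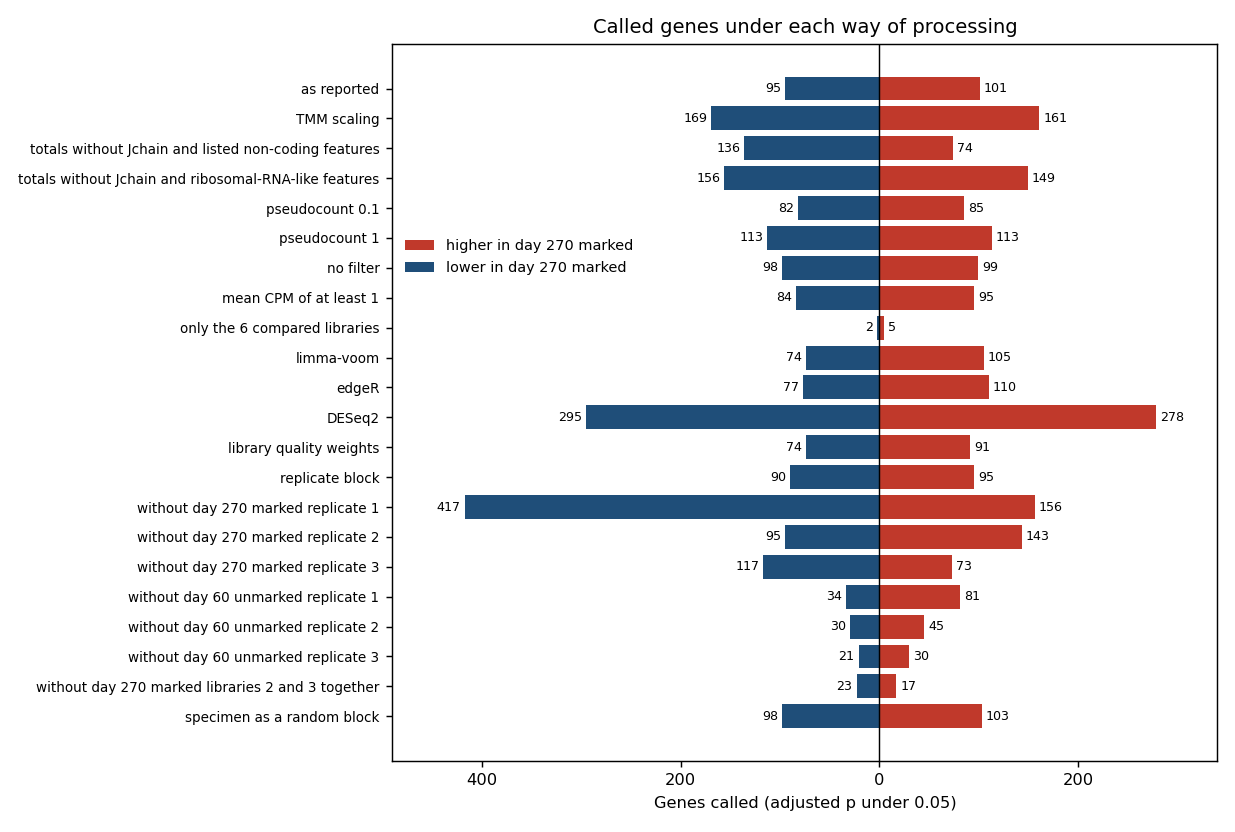
Bars give the number of genes called higher (red, to the right) and lower (blue, to the left) in day 270 marked cells than in day 60 unmarked cells under each way of processing. The counts run from 5 higher and 2 lower with only the 6 compared libraries up to 278 higher with DESeq2 and 417 lower without day 270 marked replicate 1, against 101 and 95 as reported.

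MHC class II molecules present peptides to CD4 T cells, and plasma cells lose them as they mature. Of 11 tested genes of this pathway, 5 fell in day 270 marked cells and none rose, against 0.748% of all genes that fell. The median over the list was -1.23, with 10 of 11 genes negative. The 5 that fell were H2-Aa, H2-Ab1, H2-Eb1 and H2-Eb2, which encode chains of the surface molecules, and H2-Ob, which encodes a chain of the H2-O regulator of peptide loading. Their promoters are shown because the genes of this family are known to share a promoter module whose Y box binds NF-Y, beside sites for the RFX complex, under the coactivator Ciita. The Y box core ATTGG, searched on both strands, is in capitals in these RefSeq promoters (GRCm38.p6), which run from 250 bases before to 50 bases after the gene's start.
H2-Aa, chr17:34287774-34288073, minus strand: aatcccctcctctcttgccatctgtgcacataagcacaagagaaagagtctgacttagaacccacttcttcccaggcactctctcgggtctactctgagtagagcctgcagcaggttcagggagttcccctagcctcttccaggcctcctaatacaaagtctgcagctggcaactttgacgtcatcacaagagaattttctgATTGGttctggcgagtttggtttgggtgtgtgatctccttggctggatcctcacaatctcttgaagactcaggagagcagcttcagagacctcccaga
H2-Eb1, chr17:34305617-34305916, plus strand: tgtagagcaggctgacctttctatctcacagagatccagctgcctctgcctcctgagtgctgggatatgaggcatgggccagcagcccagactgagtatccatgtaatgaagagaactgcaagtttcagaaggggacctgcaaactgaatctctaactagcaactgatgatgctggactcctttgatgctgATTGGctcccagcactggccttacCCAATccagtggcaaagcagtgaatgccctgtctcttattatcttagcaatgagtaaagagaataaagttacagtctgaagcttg
H2-Eb2, chr17:34325425-34325724, plus strand: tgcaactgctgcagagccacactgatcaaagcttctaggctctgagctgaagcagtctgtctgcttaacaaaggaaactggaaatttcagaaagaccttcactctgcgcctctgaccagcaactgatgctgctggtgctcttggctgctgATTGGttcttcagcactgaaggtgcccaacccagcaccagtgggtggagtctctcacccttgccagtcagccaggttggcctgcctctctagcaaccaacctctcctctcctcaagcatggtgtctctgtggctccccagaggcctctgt
H2-Ob, chr17:34238655-34238954, plus strand: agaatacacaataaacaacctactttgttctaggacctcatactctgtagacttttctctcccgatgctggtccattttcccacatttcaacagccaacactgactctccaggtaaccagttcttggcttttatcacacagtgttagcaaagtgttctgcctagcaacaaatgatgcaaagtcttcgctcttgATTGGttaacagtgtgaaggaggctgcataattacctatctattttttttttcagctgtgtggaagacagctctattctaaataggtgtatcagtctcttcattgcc
The core was present in 4 of the 4 called genes with a promoter in the RefSeq table, and in 37.4% of all 32851 promoters of 300 bases. H2-Ab1 had no entry. In H2-Aa the core began at position -48 from the start, in H2-Ob at -57, in H2-Eb2 at -100, and in H2-Eb1 at -59 and, on the other strand, at -35. A match describes the letters of the window and no binding was measured.

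H2-Ab1 (chr17:34257689-34269419, GRCm38, plus strand) had 325.5, 254 and 389 CPM in day 270 marked cells, against 1061, 1111 and 1161 CPM in day 60 unmarked cells. All 3 marked libraries were below all 3 unmarked ones, a log2 fold change of -1.80 ± 0.18 (SE, n = 3 each, limma adjusted p = 5.55e-05). H2-Eb1 followed at 158, 125 and 187 CPM in day 270 marked cells, against 534, 544 and 528 CPM in day 60 unmarked cells (-1.79 ± 0.18, adjusted p = 5.55e-05). H2-Aa had 86.1, 47.8 and 157 CPM in day 270 marked cells, against 465, 458 and 435 CPM in day 60 unmarked cells (-2.38 ± 0.32, adjusted p = 8.61e-04). These 3 genes were called with each of the 6 libraries left out in turn. H2-Eb2 had 24.6, 28.3 and 28.7 CPM in day 270 marked cells and 73.0, 69.5 and 52.0 CPM in day 60 unmarked cells (-1.23 ± 0.25, adjusted p = 0.0145). H2-Ob spread more widely, with 34.7, 3.22 and 16.6 CPM in day 270 marked cells, against 66.7, 90.1 and 62.4 CPM in day 60 unmarked cells (-2.47 ± 0.52, adjusted p = 0.0192). The calls of these 2 genes were lost without some day 60 unmarked libraries, at the latest at an adjusted p of 0.0987 (H2-Eb2) and 0.113 (H2-Ob) without replicate 2.

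The other 6 members were not called. The invariant chain Cd74, which guards the peptide groove and has roles outside presentation, had 9290, 7684 and 10154 CPM in day 270 marked cells and 13483, 10415 and 10632 CPM in day 60 unmarked cells (-0.35 ± 0.22, adjusted p = 0.491). The groups did not overlap for Cd74, but the difference missed the threshold. The coactivator Ciita stood at a log2 fold change of -1.56, H2-DMb1 at -1.08 (adjusted p = 0.0561), H2-DMa at -0.92, H2-DMb2 at -0.12 and H2-Oa at 0.11, all uncalled. Summed over the 10 genes other than Cd74, the level was 704, 508 and 826 CPM in day 270 marked cells, 2056, 1613 and 2091 CPM in day 270 unmarked cells, 895, 645 and 665 CPM in day 60 marked cells, and 2322, 2365 and 2349 CPM in day 60 unmarked cells. Both unmarked groups stood above both marked groups in every library. MHC class I and its peptide loading genes held no call among 15 tested genes. B2m, the shared light chain of class I, differed by 0.12 ± 0.23 on the log2 scale (adjusted p = 0.875), and H2-K1 by -0.08 ± 0.19 (adjusted p = 0.895).

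Of 26 genes of the B cell receptor and B cell identity, 4 fell and none rose, with a list median of -0.12 that lies at the median of all genes. Cd79a, the signalling chain of the B cell receptor, had 370.0, 243 and 402 CPM in day 270 marked cells, against 946, 758 and 757 CPM in day 60 unmarked cells (-1.30 ± 0.18, adjusted p = 0.00133). Fcmr, the Fc receptor for IgM, had 139, 46.7 and 114 CPM in day 270 marked cells, against 254, 282 and 383 CPM in day 60 unmarked cells (-1.73 ± 0.30, adjusted p = 0.00604). Blk, a Src-family kinase of B cells, fell by 1.14 on the log2 scale (SE 0.24, adjusted p = 0.0205). The groups did not overlap for Cd79a, Fcmr and Blk. Cd79a was called with each library left out in turn. The calls of Fcmr and Blk were lost without 1 or more of the libraries, at the latest at an adjusted p of 0.0574 (Fcmr, without day 60 unmarked replicate 3) and 0.138 (Blk, without day 60 unmarked replicate 2). Other B cell genes did not move with them: Cd79b, the partner chain of Cd79a, had a log2 fold change of -0.11, Ms4a1 (CD20) 0.26, Pax5 -0.76 and Cd72 1.63, none of them called. Further abundant falls lay outside the B cell list. Coro1a, an actin regulator of leukocytes, had 124, 95.04 and 91.5 CPM in day 270 marked cells, against 223, 238 and 184 CPM in day 60 unmarked cells (-1.06 ± 0.17, adjusted p = 0.00301). Napsa, an aspartic protease, fell by 1.04 on the log2 scale (adjusted p = 0.0142, up to 0.107 without day 60 unmarked replicate 3).

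Cell division genes were the list with the lowest median. Of 33 mitosis genes tested, 9 fell, none rose and 32 were negative, the median being -1.91. The 9 were the cyclin-dependent kinase Cdk1, the Aurora kinases Aurka and Aurkb, the chromosomal passenger subunit Birc5, the condensin subunit Ncapg, the spindle midzone protein Prc1, the kinase Nek2, the topoisomerase Top2a and Cdca3, a trigger of mitotic entry. Groups did not overlap for 23 of the 33 genes, against 9.44% of all tested genes on the lower side. Late cell cycle genes are known to carry a promoter element called the CHR, which the MuvB complexes bind, and the promoters of 3 of the called genes are shown with its letters TTTGAA, on either strand, in capitals.
Ncapg, chr5:45669675-45669974, plus strand: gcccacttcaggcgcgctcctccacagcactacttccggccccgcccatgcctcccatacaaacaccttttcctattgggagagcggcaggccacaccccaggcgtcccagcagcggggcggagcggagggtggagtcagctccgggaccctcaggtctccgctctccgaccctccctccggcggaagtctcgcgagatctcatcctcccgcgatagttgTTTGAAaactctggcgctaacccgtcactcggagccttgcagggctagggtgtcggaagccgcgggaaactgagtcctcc
Cdk1, chr10:69352863-69353162, minus strand: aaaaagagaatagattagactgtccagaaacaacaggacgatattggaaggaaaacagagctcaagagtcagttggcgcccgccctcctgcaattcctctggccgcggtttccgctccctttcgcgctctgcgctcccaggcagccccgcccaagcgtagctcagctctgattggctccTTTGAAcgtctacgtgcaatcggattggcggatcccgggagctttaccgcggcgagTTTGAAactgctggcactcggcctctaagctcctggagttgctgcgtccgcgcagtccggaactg
Cdca3, chr6:124829926-124830225, plus strand: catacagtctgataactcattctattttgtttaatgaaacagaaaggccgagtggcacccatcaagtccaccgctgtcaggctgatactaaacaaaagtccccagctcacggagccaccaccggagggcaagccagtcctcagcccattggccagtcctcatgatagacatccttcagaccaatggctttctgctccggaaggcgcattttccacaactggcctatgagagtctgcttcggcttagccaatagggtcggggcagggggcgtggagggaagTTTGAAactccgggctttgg
The letters were found in 6 of the 8 called mitosis genes that had a promoter in the table (Ncapg, Cdk1, Cdca3, Prc1, Aurka and Top2a), and in 17.9% of all promoters. They began at -30 in Ncapg, at -71 and -15 in Cdk1, and at 30, after the start, in Cdca3.

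Levels of these genes were low in both groups. Cdk1 had 2.82, 0 and 0.757 CPM in day 270 marked cells, against 15.7, 18.0 and 15.1 CPM in day 60 unmarked cells (-3.71 ± 0.72, adjusted p = 0.0123). Ncapg had 0.627, 0 and 0 CPM in day 270 marked cells, against 7.37, 14.8 and 15.1 CPM in day 60 unmarked cells (-4.23 ± 0.63, adjusted p = 0.00176). Cdca3 had 0.376, 0 and 0.757 CPM in day 270 marked cells, against 7.11, 11.9 and 9.91 CPM in day 60 unmarked cells (-3.60 ± 0.54, adjusted p = 0.00176). All 3 were at 2.82 CPM or less in every marked library, below every unmarked one. Top2a had 1.88, 3.89 and 14.6 CPM in day 270 marked cells, against 21.8, 28.3 and 32.0 CPM in day 60 unmarked cells (-2.35 ± 0.54, adjusted p = 0.0313). Nek2 had 0, 0.268 and 0 CPM in day 270 marked cells, against 1.84, 14.4 and 3.30 CPM in day 60 unmarked cells (-3.15 ± 0.72, adjusted p = 0.0309), so most of its unmarked reads lay in replicate 2. Mki67, the proliferation marker, had 16.2, 23.4 and 28.5 CPM in day 270 marked cells and 34.4, 30.4 and 63.4 CPM in day 60 unmarked cells, and was not called (-0.86 ± 0.45, adjusted p = 0.412). Ncapg and Cdca3 were called with each library left out. The other 7 calls were lost with 1 or more libraries left out, at adjusted p-values of up to 0.0737 (Cdk1), 0.103 (Prc1), 0.139 (Birc5), 0.159 (Aurka), 0.185 (Aurkb) and 0.197 (Nek2), each without day 60 unmarked replicate 2, and 0.176 (Top2a) without replicate 3.

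Summed over the 33 mitosis genes, the level was 109, 73.6 and 101 CPM in day 270 marked cells, 299, 285 and 224 CPM in day 270 unmarked cells, 41.6, 80.8 and 69.4 CPM in day 60 marked cells, and 267, 324 and 311 CPM in day 60 unmarked cells. As for class II, both unmarked groups were above both marked groups in every library. Of 34 DNA replication genes, 2 fell, none rose and 28 were negative, with a median of -0.53. Of all tested genes, 0.748% fell and 59.5% were negative. Cdc45, part of the replicative helicase, had 0.439, 0 and 0 CPM in day 270 marked cells, against 8.78, 6.95 and 9.43 CPM in day 60 unmarked cells (-3.84 ± 0.56, adjusted p = 0.00157). Rrm2, the regulated subunit of ribonucleotide reductase, had 14.9, 17.1 and 16.9 CPM in day 270 marked cells, against 40.1, 37.3 and 37.6 CPM in day 60 unmarked cells (-1.21 ± 0.28, adjusted p = 0.0342). Cdc45 was called with each library left out, while Rrm2 reached an adjusted p of 0.15 without day 60 unmarked replicate 3. Of 24 Myc and G1 regulators, 2 fell and none rose. Myc had 1.82, 1.88 and 5.63 CPM in day 270 marked cells, against 16.3, 15.5 and 8.05 CPM in day 60 unmarked cells (-2.03 ± 0.49, adjusted p = 0.0465, up to 0.206 without day 60 unmarked replicate 2). Pim2, a survival kinase, had 71.4, 38.9 and 70.8 CPM in day 270 marked cells, against 133, 103 and 121 CPM in day 60 unmarked cells (-1.02 ± 0.22, adjusted p = 0.0253, up to 0.134 without day 60 unmarked replicate 3).

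**Figure D3:**
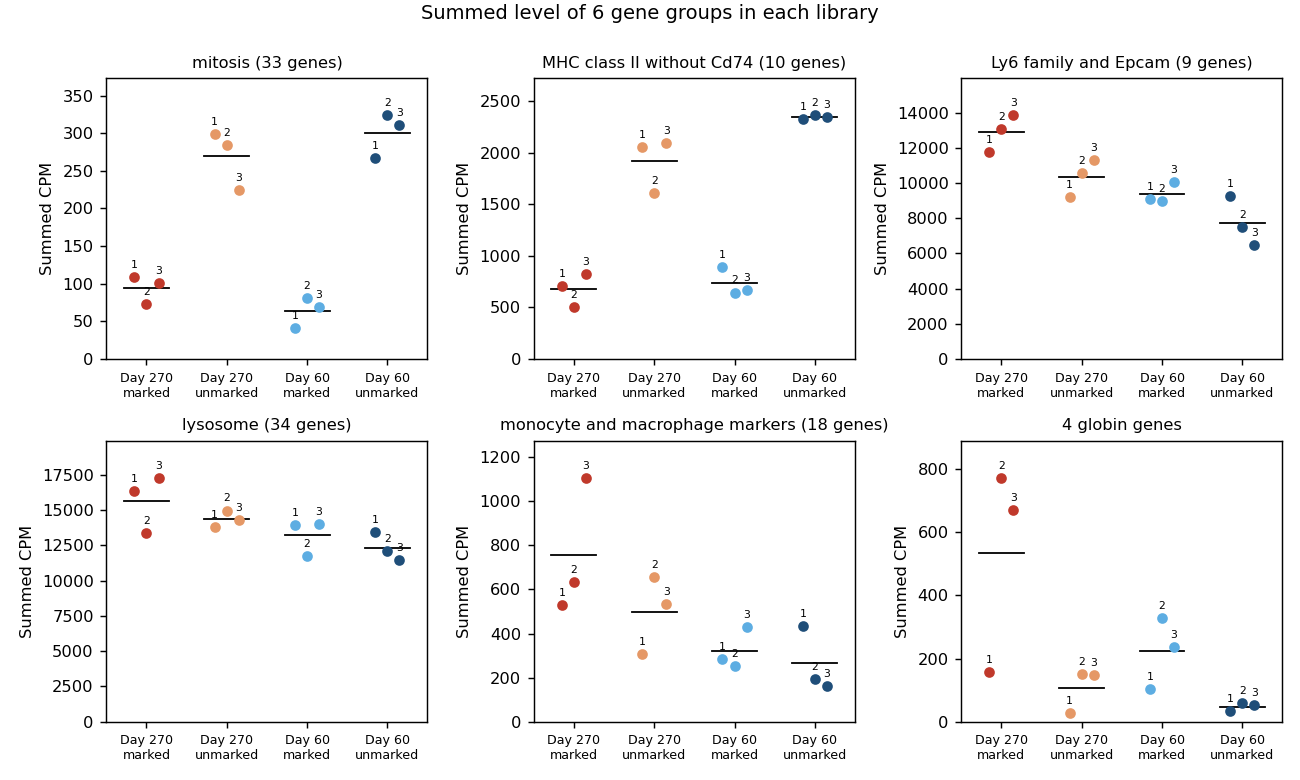
Points give the CPM summed over 6 groups of genes in each library, numbered by replicate, with the group mean as a bar, for day 270 marked, day 270 unmarked, day 60 marked and day 60 unmarked cells. Mitosis and MHC class II sums are low in all 6 marked libraries, at 41.6 to 109 CPM and 508 to 895 CPM. Globins are highest in day 270 marked replicates 2 and 3, and macrophage markers in day 270 marked replicate 3.

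Surface receptors made up many of the steepest falls. Cxcr3 (chrX:101731535-101734269, GRCm38, minus strand), a chemokine receptor for interferon-induced ligands, had 0.878, 4.97 and 0 CPM in day 270 marked cells, against 33.8, 37.3 and 36.4 CPM in day 60 unmarked cells. Its log2 fold change of -4.54 ± 0.67 (adjusted p = 0.00157) was the lowest of all called genes that the naming rule admitted. Fas (chr19:34290666-34327772, GRCm38, plus strand), the death receptor, had 1.44, 0 and 1.51 CPM in day 270 marked cells, against 20.9, 23.2 and 33.0 CPM in day 60 unmarked cells (-4.36 ± 0.52, adjusted p = 2.84e-04). For both genes every marked library was at least several-fold below every unmarked one. Il2rb, the beta chain shared by the IL-2 and IL-15 receptors, had 2.63, 0 and 0 CPM in day 270 marked cells, against 15.4, 14.2 and 31.9 CPM in day 60 unmarked cells (-4.41 ± 0.72, adjusted p = 0.00324). Fcrl5, an Fc receptor-like inhibitor of B cell receptor signalling, had 0 reads in the 3 day 270 marked libraries and 404 reads in the day 60 unmarked ones. Against a floor of 3 reads over the group, it was at least 117-fold lower (adjusted p = 0.00216). Tigit, an inhibitory receptor, had 23.7, 9.13 and 4.76 CPM in day 270 marked cells, against 72.8, 64.7 and 61.2 CPM in day 60 unmarked cells (-2.64 ± 0.43, adjusted p = 0.00324). Cxcr3, Fas, Il2rb, Fcrl5 and Tigit were called with each library left out in turn.

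The lists these receptors belong to held 1 to 3 calls each, while 0.748% of all tested genes fell. Of 15 cytokine receptors 3 fell (Il2rb, Il2ra and Il4ra), of 15 chemokine and S1P receptors 2 fell (Cxcr3 and Ccr10), of 11 inhibitory receptors 1 fell (Tigit), and none in these lists rose. Their medians were -0.53 for cytokine receptors, -0.50 for chemokine and S1P receptors and -0.97 for inhibitory receptors. Of 15 death receptor pathway genes Fas alone fell, with 9 positive and a median of 0.03, and of 11 Fc receptors Fcrl5 and Fcmr fell, with 6 positive and a median of 0.07. The medians of these last lists turned negative under another scaling. Il2ra, the alpha chain of the IL-2 receptor, had 0.314, 0 and 0 CPM in day 270 marked cells, against 6.41, 4.29 and 1.45 CPM in day 60 unmarked cells (-2.77 ± 0.65, adjusted p = 0.0384). Il4ra, the IL-4 receptor, had 0, 1.07 and 2.38 CPM in day 270 marked cells, against 6.76, 10.99 and 8.05 CPM in day 60 unmarked cells (-2.77 ± 0.62, adjusted p = 0.0286). Il2rg, the common chain that pairs with both, had a log2 fold change of -0.10 and was not called. Ccr10, the receptor by which IgA plasma cells home to mucosa, had 48.7, 21.5 and 28.02 CPM in day 270 marked cells, against 150.3, 84.8 and 67.4 CPM in day 60 unmarked cells (-1.61 ± 0.36, adjusted p = 0.0292). Cxcr4, the receptor that holds plasma cells in the marrow, had 312, 160.1 and 285 CPM in day 270 marked cells and 315, 376 and 338 CPM in day 60 unmarked cells, and was not called (-0.50 ± 0.20, adjusted p = 0.266). Calls of Il2ra, Il4ra and Ccr10 were lost with 3 to 5 of the 6 libraries left out, at up to 0.162, 0.144 and 0.152. The highest of these values came without day 60 unmarked replicate 1 for Il2ra and Ccr10, and without replicate 2 for Il4ra.

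Among 21 genes of plasma cell identity, Cd38 fell and none rose. Cd38, an ectoenzyme of the surface, had 50.9, 9.66 and 14.8 CPM in day 270 marked cells, against 89.7, 70.7 and 96.4 CPM in day 60 unmarked cells (-2.09 ± 0.45, adjusted p = 0.0233, up to 0.14 without day 60 unmarked replicate 3). The first marked library was the nearest to the unmarked ones. Sdc1 (CD138), by which plasma cells are commonly recognised, had 2329, 1751 and 2171 CPM in day 270 marked cells and 2143, 1944 and 1938 CPM in day 60 unmarked cells (0.04 ± 0.17, adjusted p = 0.942). The factors Prdm1 (-0.04 ± 0.23), Irf4 (-0.07 ± 0.18) and Xbp1 (0.15 ± 0.19) lay within their errors of no difference, with adjusted p-values of 0.964, 0.92 and 0.783. Jchain, which joins IgA and IgM chains, had 205393, 79037 and 154095 CPM in day 270 marked cells and 225135, 245808 and 217036 CPM in day 60 unmarked cells. It was not called (-0.75 ± 0.54, adjusted p = 0.566), and its lowest value was in the library with 30.4% ribosomal-RNA-like reads.

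Mcl1, the gene whose floxed allele all groups carry, had 417, 384 and 513 CPM in day 270 marked cells and 538, 483 and 539 CPM in day 60 unmarked cells. It was not called (-0.26 ± 0.17, adjusted p = 0.519). The table gives 1 value for the gene, so its alleles were not told apart. In the Bcl2 family of 15 genes, Pmaip1 (Noxa), a BH3-only protein that binds Mcl1, was called higher and none was called lower. It had 40.6, 49.8 and 53.2 CPM in day 270 marked cells, against 23.0, 20.3 and 9.84 CPM in day 60 unmarked cells (1.49 ± 0.31, adjusted p = 0.0192, and 0.13 without day 60 unmarked replicate 3). Bcl2 (-0.00 ± 0.23) and Bcl2l11 (Bim, -0.52 ± 0.28) were not called, with adjusted p-values of 0.998 and 0.416. Of 16 plasma cell survival receptors none was called. Tnfrsf17 differed by 0.21 ± 0.16 on the log2 scale (adjusted p = 0.605), Tnfrsf13b by 0.02 ± 0.16 (adjusted p = 0.97) and Cd28 by -0.33 ± 0.25 (adjusted p = 0.597).

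Turning to the rises, Slc12a2, the sodium-potassium-chloride cotransporter, had 682, 634 and 682 CPM in day 270 marked cells, against 189.8, 144 and 191 CPM in day 60 unmarked cells (1.94 ± 0.20, adjusted p = 6.27e-05). Slamf9, a SLAM family receptor, had 295, 346 and 387 CPM in day 270 marked cells, against 127, 85.0 and 79.8 CPM in day 60 unmarked cells (1.83 ± 0.19, adjusted p = 6.27e-05). Nox1, a NADPH oxidase that makes superoxide, had 205, 254 and 181 CPM in day 270 marked cells, against 76.7, 44.7 and 45.6 CPM in day 60 unmarked cells (1.96 ± 0.23, adjusted p = 2.84e-04). Each of the 3 genes was more than 2-fold apart between the lowest marked and the highest unmarked library. The day 270 unmarked and day 60 marked groups had intermediate means: 308 and 457 CPM for Slc12a2, 172 and 143 CPM for Slamf9, and 99.6 and 140.3 CPM for Nox1. Slpi, an inhibitor of leukocyte elastase and the most abundant called gene, had 5388, 5347 and 6047 CPM in day 270 marked cells, against 2493, 2183 and 2644 CPM in day 60 unmarked cells (1.20 ± 0.18, adjusted p = 0.00173). These 4 genes were called with each library left out in turn. Slpi is in no list. Slc12a2, Slamf9 and Nox1 each stood alone among the rises of their list. They were 1 of 15 ion transport genes, 1 of 9 SLAM family genes and 1 of 8 NADPH oxidase genes. Among the ion transport genes the sodium pump subunit Atp1b1 fell (-2.47 ± 0.51, adjusted p = 0.0179, up to 0.112 without day 60 unmarked replicate 1).

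**Figure D4:**
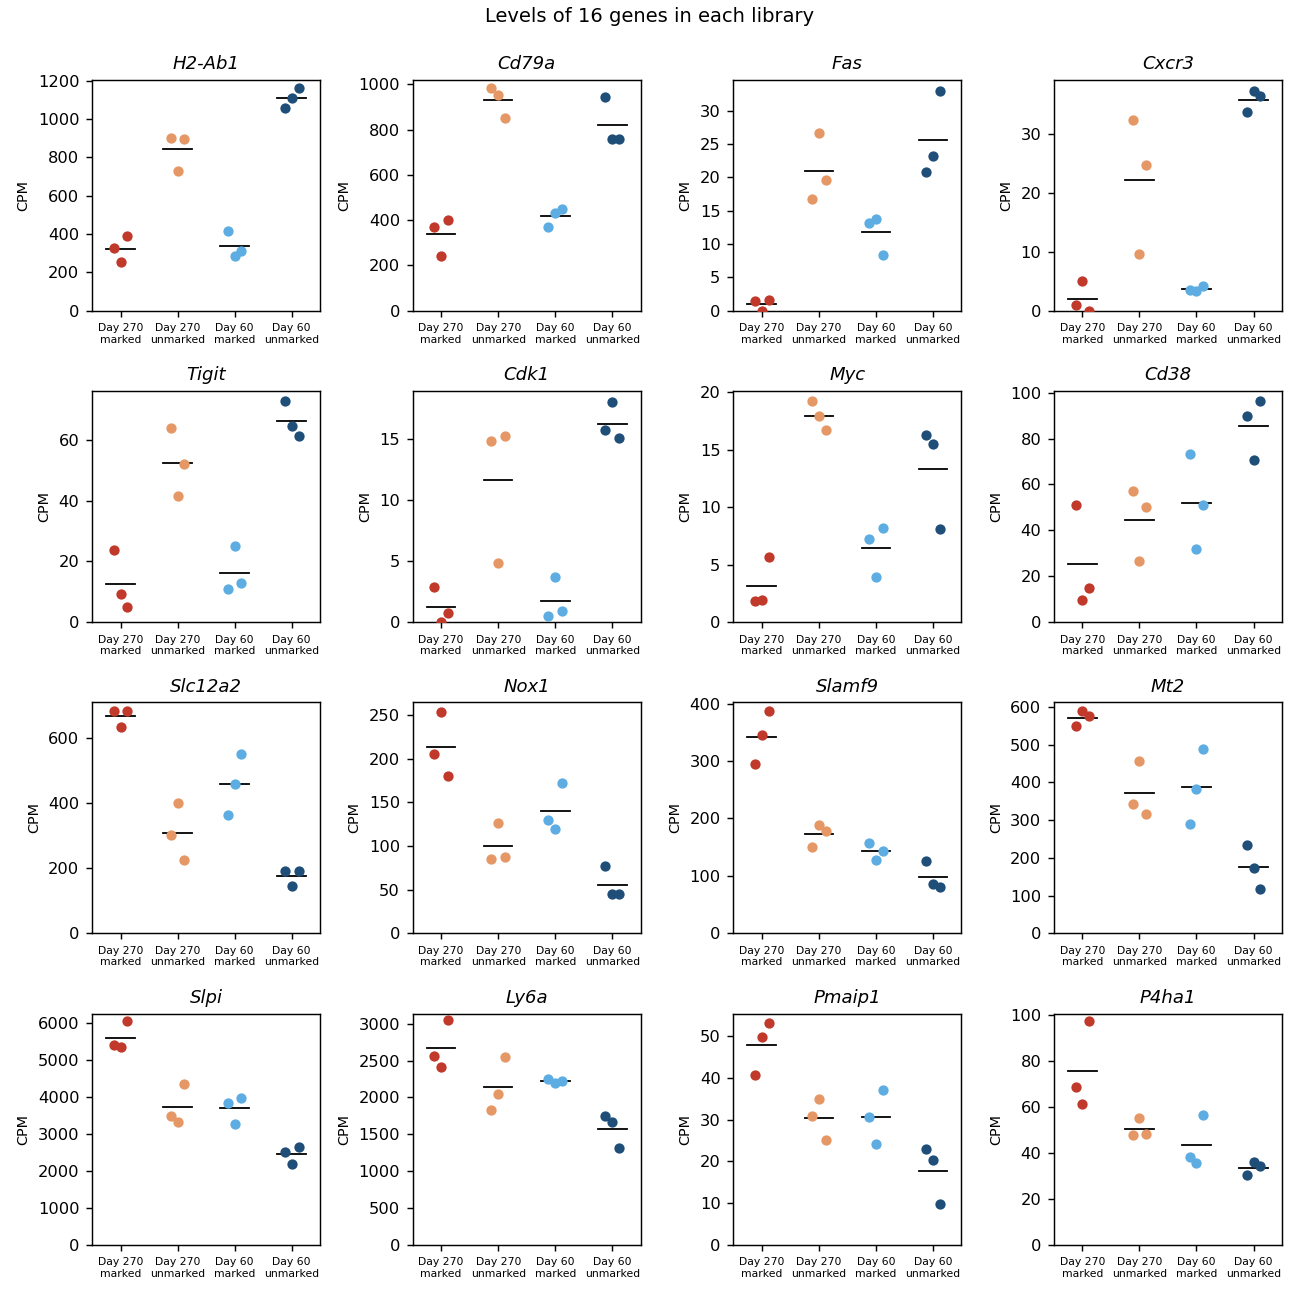
Points give the CPM of 16 genes in the 3 libraries of each group, replicates 1, 2 and 3 from left to right, with the mean as a bar; groups run from day 270 marked at the left to day 60 unmarked at the right. H2-Ab1, Cd79a, Cxcr3, Tigit, Cdk1 and Myc have lower means in both marked groups than in both unmarked groups, and Slc12a2, Nox1, Slamf9, Mt2 and Slpi are highest in day 270 marked and lowest in day 60 unmarked cells.

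Metallothioneins bind zinc and copper and are induced through the factor Mtf1, which reads metal response elements (MREs) in their promoters. The promoters of Mt1 and Mt2 are shown with the MRE core TGCGCNC or TGCACNC, on either strand, in capitals.
Mt1, chr8:94178839-94179138, plus strand: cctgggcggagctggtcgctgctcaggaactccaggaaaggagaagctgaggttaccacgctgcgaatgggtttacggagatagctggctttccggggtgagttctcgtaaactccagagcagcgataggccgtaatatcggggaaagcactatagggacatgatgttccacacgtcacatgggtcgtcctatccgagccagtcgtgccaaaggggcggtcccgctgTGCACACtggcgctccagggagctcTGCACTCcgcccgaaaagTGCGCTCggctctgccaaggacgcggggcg
Mt2, chr8:94172368-94172667, plus strand: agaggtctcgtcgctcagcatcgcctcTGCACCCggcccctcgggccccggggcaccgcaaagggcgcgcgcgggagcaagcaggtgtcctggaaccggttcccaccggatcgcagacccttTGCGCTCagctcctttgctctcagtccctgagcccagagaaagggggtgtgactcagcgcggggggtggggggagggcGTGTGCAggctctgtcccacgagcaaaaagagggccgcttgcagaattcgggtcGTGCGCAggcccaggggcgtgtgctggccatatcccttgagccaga
There were 3 matches in Mt1, at -23, 2 and 20, and 4 in Mt2, at -223, -128, -50 and 4, while 25.7% of all promoters held at least 1. Mt1 had 764, 864 and 804 CPM in day 270 marked cells, against 417, 301 and 161 CPM in day 60 unmarked cells (1.57 ± 0.24, adjusted p = 0.00216). Mt2 had 548, 588 and 576 CPM in day 270 marked cells, against 233, 174 and 118 CPM in day 60 unmarked cells (1.76 ± 0.23, adjusted p = 6.93e-04). Both were tight among the marked libraries, and both were called with each library left out. In the whole list of 25 metallothionein and antioxidant genes 4 rose and none fell, against 0.795% of all tested genes that rose. The list median of 0.05 turned to -0.10 under another scaling. The other rises were Ftl1, the ferritin light chain (0.69 ± 0.16, adjusted p = 0.0414, and 0.252 without day 60 unmarked replicate 3), and Hmox1, heme oxygenase. The peroxiredoxins, thioredoxin reductase and superoxide dismutases in it were not called.

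Of 9 Ly6 family and epithelial adhesion genes 6 rose and none fell, against 0.795% of all tested genes that rose, with a median of 1.13. Groups did not overlap for 8 of the 9, against 6.56% of all tested genes on the higher side. The list was drawn up with earlier results of these data known, so these shares describe it and are not a test. The Ly6 proteins are small surface proteins on a lipid anchor. Ly6a (Sca-1) had 2568, 2411 and 3048 CPM in day 270 marked cells, against 1753, 1663 and 1309 CPM in day 60 unmarked cells (0.77 ± 0.18, adjusted p = 0.032). Ly6c2 had 1648, 4442 and 2829 CPM in day 270 marked cells, against 1636, 969 and 698 CPM in day 60 unmarked cells (1.41 ± 0.32, adjusted p = 0.0303). The first marked library barely exceeded the first unmarked one for Ly6c2, and the groups were farther apart in replicates 2 and 3. Ly6d (0.99 ± 0.24, adjusted p = 0.0414) and Ly6i (1.98 ± 0.45, adjusted p = 0.0299) also rose. Epcam, an epithelial adhesion molecule, had 253, 275 and 273 CPM in day 270 marked cells, against 162, 88.6 and 127 CPM in day 60 unmarked cells (1.13 ± 0.22, adjusted p = 0.0126). Cldn7, a claudin known to bind Epcam, had 55.4, 91.1 and 123 CPM in day 270 marked cells, against 27.5, 18.7 and 16.0 CPM in day 60 unmarked cells (2.06 ± 0.30, adjusted p = 0.00147). Cldn7 was called with each library left out, while the other 5 calls were lost with 2 to 4 of the libraries left out. Their adjusted p-values reached 0.22 (Ly6a), 0.209 (Ly6c2), 0.25 (Ly6d) and 0.184 (Ly6i) without day 60 unmarked replicate 3, and 0.099 (Epcam) without replicate 2. Ly6a, Ly6c1, Ly6c2 and Ly6i are close copies, and how reads shared between them were counted is not given here.

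Lysosomal genes rose in part: 4 of 34 were called higher, none lower, and 25 were positive. Of all tested genes, 0.795% were called higher and 40.5% were positive. The list median was 0.30 (0.15 to 0.32 over the scalings). Lamp1, a main glycoprotein of the lysosomal membrane, had 703, 527 and 769 CPM in day 270 marked cells, against 427, 402 and 352 CPM in day 60 unmarked cells (0.74 ± 0.16, adjusted p = 0.0269). The cathepsin Ctsl had 119, 76.4 and 172 CPM in day 270 marked cells, against 50.5, 53.2 and 47.6 CPM in day 60 unmarked cells (1.20 ± 0.24, adjusted p = 0.015). Tpp1, a tripeptidyl peptidase, had 136, 170.2 and 176 CPM in day 270 marked cells, against 85.3, 73.2 and 71.9 CPM in day 60 unmarked cells (1.05 ± 0.19, adjusted p = 0.00791). Groups did not overlap for any of these. The fourth was the tetraspanin Cd63, at 12.2, 17.1 and 16.0 CPM in day 270 marked cells and 2.37, 1.63 and 1.51 CPM in day 60 unmarked cells (2.74 ± 0.58, adjusted p = 0.0209), which has a near-identical pseudogene copy, Cd63-ps. The 4 calls were lost with 2 to 4 of the libraries left out, at up to 0.172 (Lamp1), 0.0882 (Ctsl), 0.0594 (Tpp1) and 0.115 (Cd63), each without day 60 unmarked replicate 3. Outside the list, 2 other cathepsins fell. Ctsk, named after its values were seen, had no read in day 270 marked cells and 157 reads in day 60 unmarked cells, at least 45.5-fold lower against a floor of 3 reads over the group (adjusted p = 0.0134). Ctsc had 125, 52.8 and 115 CPM in day 270 marked cells and 195, 168 and 207 CPM in day 60 unmarked cells (-1.05 ± 0.25, adjusted p = 0.0397, up to 0.198 without day 60 unmarked replicate 3).

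Some markers of other marrow cells, namely most of those of macrophages and neutrophils and the globins, were also higher in day 270 marked libraries. Their sums were larger in day 270 marked replicates 2 and 3 than in replicate 1. Not all cell types went this way. The median log2 fold change was -0.61 for basophil, mast cell and eosinophil markers and -0.15 for dendritic cell markers. Of 18 monocyte and macrophage markers 17 were positive, with a median of 1.65, and their sum was 529.9, 633 and 1106 CPM in day 270 marked cells, against 436, 193 and 163 CPM in day 60 unmarked cells. In the pair of replicate 1 libraries the median difference of these markers was -0.03, and between replicates 2 and 3 of each group it was 2.27. For the lysosomal list the same medians were 0.27 and 0.24. Among its called genes the differences in replicate 1 and in replicates 2 and 3 were 0.67 and 1.25 for Tpp1, 2.15 and 3.04 for Cd63, 0.72 and 0.76 for Lamp1, and 1.23 and 1.18 for Ctsl. The called markers of the list were Vcam1, an adhesion molecule of marrow macrophages and stroma, and Hmox1, which many cells express. Vcam1 had 41.5, 59.6 and 79.9 CPM in day 270 marked cells, against 19.7, 6.87 and 7.16 CPM in day 60 unmarked cells (2.49 ± 0.54, adjusted p = 0.0244, up to 0.152 without day 60 unmarked replicate 3). Hmox1 had 164, 184 and 156 CPM in day 270 marked cells, against 84.9, 44.1 and 33.8 CPM in day 60 unmarked cells (1.73 ± 0.29, adjusted p = 0.00405). All 18 markers had reads in both groups, and the part of macrophage RNA in the rises of Hmox1, Vcam1, Cd63, Ly6c2, Ggh and the lysosomal genes was not tested.

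The 4 globin genes were called higher and are the abundant products of red cell precursors. Hbb-bs had 88.1, 412 and 360.4 CPM in day 270 marked cells, against 19.8, 39.7 and 32.3 CPM in day 60 unmarked cells (2.98 ± 0.58, adjusted p = 0.0123). Each of the 4 calls was lost with 1 to 3 of the libraries left out, at up to 0.0594 (Hbb-bt, without day 60 unmarked replicate 3), 0.0663 (Hba-a2, without replicate 2), and 0.0721 and 0.0627 (Hba-a1 and Hbb-bs, without replicate 1). Summed over the 4, the level was 158, 773 and 671 CPM in day 270 marked cells, 26.9, 149.7 and 149 CPM in day 270 unmarked cells, 105, 328 and 238 CPM in day 60 marked cells, and 32.6, 58.5 and 52.5 CPM in day 60 unmarked cells. Replicate 1 was the lowest library in every group. Hba-a1 and Hba-a2 are near-identical copies, as are Hbb-bs and Hbb-bt, so the split of reads between them is uncertain. Of 17 neutrophil markers 15 were positive and none was called, with sums of 95.8, 549.8 and 608 CPM in day 270 marked cells and 37.9, 321 and 25.4 CPM in day 60 unmarked cells. Of 8 T and NK cell markers tested none was called and 4 were positive, with sums of 20.1, 26.7 and 35.9 CPM in day 270 marked cells and 56.8, 27.4 and 23.3 CPM in day 60 unmarked cells. Markers of megakaryocytes (6 tested), dendritic cells (6), stroma and endothelium (3), pro-B and pre-B cells (4), and basophils, mast cells and eosinophils (4) held no call. At 0 reads in day 270 marked cells were the NK and T cell genes Nkg7 and Gzma, the platelet gene Pf4, the pro-B genes Dntt and Igll1 and the eosinophil gene Epx, and at 0 reads in day 60 unmarked cells were Cxcr2, Gp1ba and Siglech.

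The largest fold rises were mostly of scarce genes. Cyp2b10, a cytochrome P450, had 6.08, 38.5 and 15.1 CPM in day 270 marked cells, against 0.088, 1.20 and 0 CPM in day 60 unmarked cells (4.32 ± 0.71, adjusted p = 0.00324). P4ha2, a catalytic subunit of collagen prolyl hydroxylase, had 16.8, 20.9 and 28.5 CPM in day 270 marked cells, against 0.527, 1.55 and 0.275 CPM in day 60 unmarked cells (4.23 ± 0.61, adjusted p = 0.00147). Its relative P4ha1 had 68.7, 60.9 and 97.1 CPM in day 270 marked cells, against 30.1, 36.1 and 34.3 CPM in day 60 unmarked cells (1.14 ± 0.24, adjusted p = 0.0195, up to 0.0829 without day 60 unmarked replicate 1). These were the 2 rises among 16 genes of hypoxia and prolyl hydroxylation, where none fell. P4hb, the partner subunit of both, had a log2 fold change of 0.17 and was not called. Yap1, the transcriptional coactivator of the Hippo pathway, rose by 3.59 ± 0.76 on the log2 scale (adjusted p = 0.0205, up to 0.144 without day 60 unmarked replicate 3), and Sema3f, a secreted semaphorin, by 3.55 ± 0.64 (adjusted p = 0.0071, and 0.0548 without day 60 unmarked replicate 3). Lmbr1 had 166 reads in day 270 marked cells and 0 in day 60 unmarked cells, at least 63.7-fold higher against a floor of 3 reads over the group (adjusted p = 0.0132, up to 0.0625 without day 60 unmarked replicate 3). Among the abundant rises, Ggh, the gamma-glutamyl hydrolase of folates, had 368, 1044 and 846 CPM in day 270 marked cells, against 362, 156 and 152 CPM in day 60 unmarked cells (1.74 ± 0.36, adjusted p = 0.0173). Its replicate 1 libraries were nearly level, and the call was lost without 2 of the libraries, at up to 0.136 without day 60 unmarked replicate 3.

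Among lymphocyte transcription factors 2 of 27 fell and none rose. Zeb2, a zinc finger repressor, had 0.69, 0 and 1.51 CPM in day 270 marked cells, against 9.83, 4.72 and 14.4 CPM in day 60 unmarked cells (-3.13 ± 0.62, adjusted p = 0.0142, up to 0.117 without day 60 unmarked replicate 3). Tbx21 (T-bet), a T-box factor of T cells and some B cells, had 0.564, 1.34 and 0 CPM in day 270 marked cells, against 4.56, 5.32 and 9.70 CPM in day 60 unmarked cells (-2.75 ± 0.68, adjusted p = 0.0494, up to 0.239 without day 60 unmarked replicate 3). Both were under 15 CPM in every library of the 2 groups. Hspa1b, an inducible Hsp70, had 0.125, 0 and 1.62 CPM in day 270 marked cells, against 6.06, 8.76 and 10.5 CPM in day 60 unmarked cells (-3.33 ± 0.70, adjusted p = 0.0205, up to 0.13 without day 60 unmarked replicate 3). It was the 1 call among 15 heat shock genes and has a near-identical copy, Hspa1a.

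The lists that cover antibody secretion held no call. In N-glycosylation, 8 of 34 genes were lower and 0 higher at an unadjusted limma p under 0.05, against 9.1% and 5.27% of all tested genes. In 17 of the 40 pathway lists, with 486 tested entries, no gene was called, and the list medians lay between -0.21 and 0.11. The unfolded protein response (26 genes tested) had a median of -0.10, endoplasmic reticulum translocation and vesicle coats (41) -0.09, N-glycosylation (34) -0.07, the integrated stress response and amino acid supply (21) 0.04, the proteasome (41) 0.03, nuclear oxidative phosphorylation (44) 0.04, glycolysis and the TCA cycle (31) -0.08, autophagy (27) 0.05 and the interferon response (28) 0.06. Among 76 cytosolic ribosomal protein genes 66 were negative, with a median of -0.21 and no call; without day 270 marked replicate 2, 50 were negative and the median was -0.09. The medians of the 17 lists ran from -0.09 to 0.33 without that library, with 15 of them positive against 7 as reported. Medians this close to 0 moved with the scaling, and 7 of the 17 changed sign under at least 1 of the 3 other scalings. Named from these lists by level, Edem1, which extracts misfolded glycoproteins, had 3199, 2498 and 3083 CPM in day 270 marked cells and 3324, 3720 and 3603 CPM in day 60 unmarked cells (-0.28 ± 0.17, adjusted p = 0.47). St6gal1, which adds terminal sialic acid to glycans, had 1431, 715 and 1230 CPM in day 270 marked cells and 1750, 1937 and 1960 CPM in day 60 unmarked cells. It narrowly missed the threshold (-0.80 ± 0.21, adjusted p = 0.067) and passed it in 6 of the alternatives. Outside the lists, enzymes of the secretory pathway were called in both directions, and those given here were named after their values were seen. Pdia5, a disulfide isomerase of the endoplasmic reticulum, had 19.4, 12.9 and 20.02 CPM in day 270 marked cells, against 3.51, 2.58 and 0.826 CPM in day 60 unmarked cells (2.79 ± 0.50, adjusted p = 0.0071). Man1c1, a Golgi mannosidase, had 83.1, 106.2 and 124.6 CPM in day 270 marked cells, against 48.3, 31.6 and 57.7 CPM in day 60 unmarked cells (1.20 ± 0.27, adjusted p = 0.0299). Dsel, B3galnt1 and Pomgnt2 were also called higher (log2 fold change 2.34, 2.18 and 2.23), while St3gal6 and Hs3st1 were called lower (-1.77 and -2.72). Among these enzymes only Dsel and B3galnt1 were called with each library left out in turn.

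**Figure D5:**
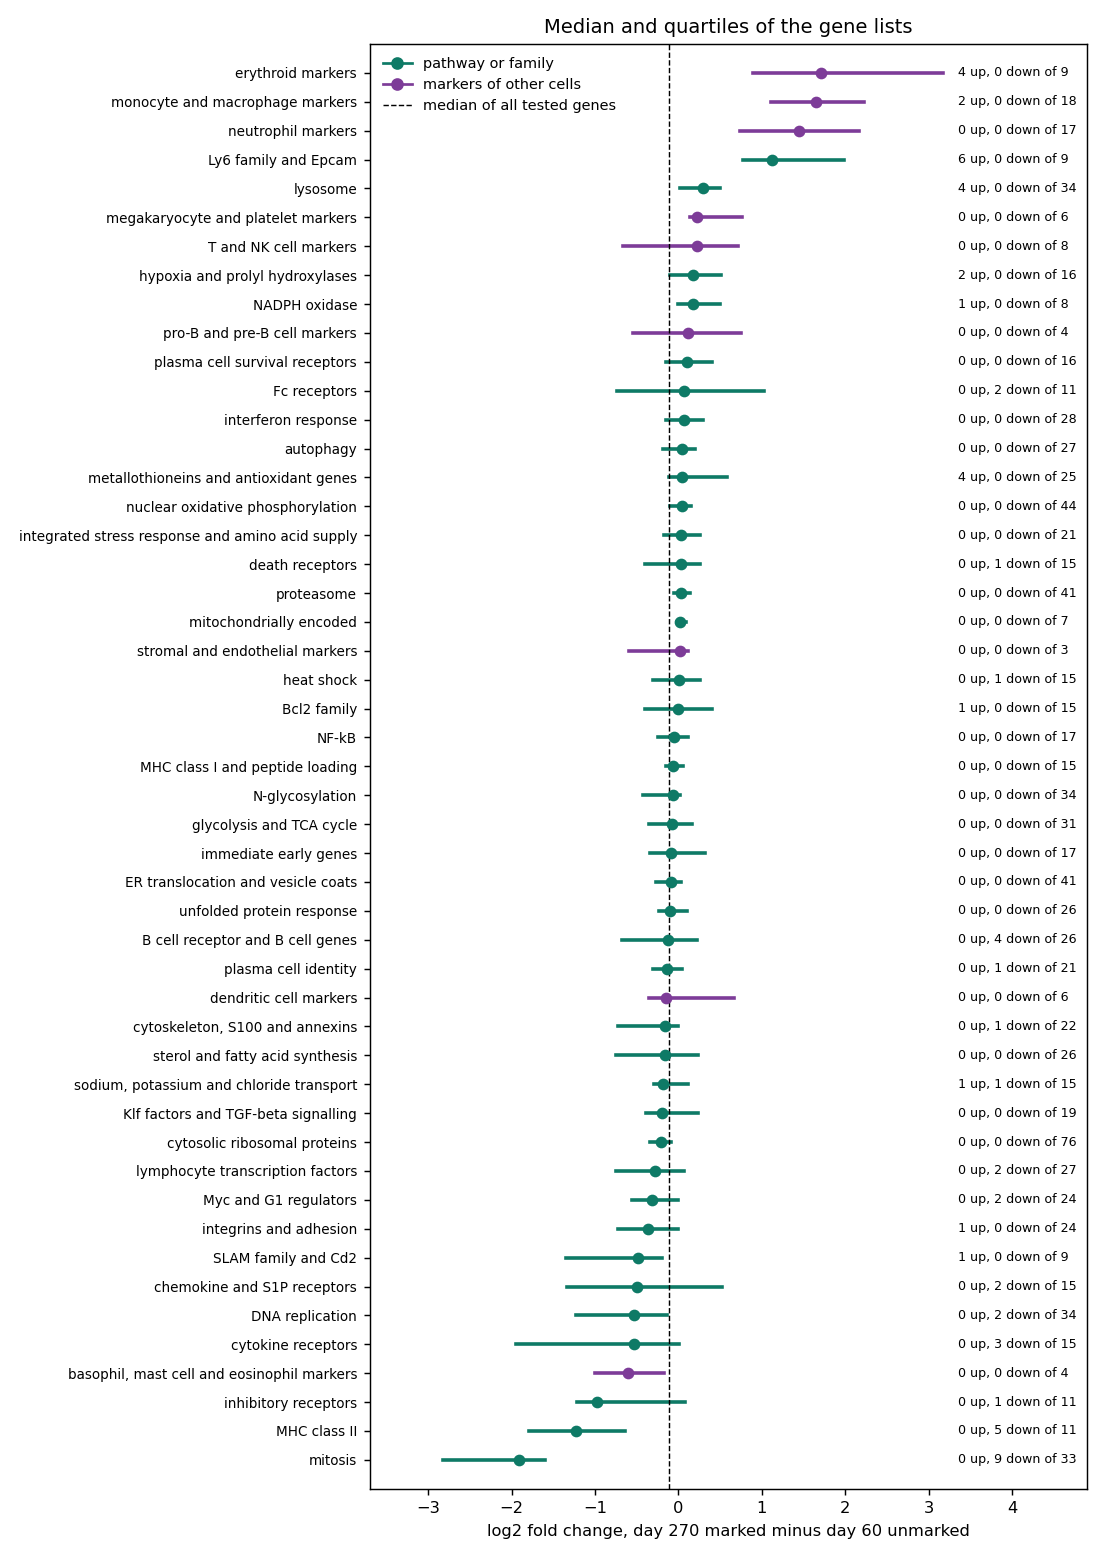
Points give the median log2 fold change of each gene list, day 270 marked minus day 60 unmarked cells, and lines its quartiles; green marks pathways and families, purple the markers of other cells, and the dashed line the median of all tested genes. Counts at the right give the genes called up and down of those tested. Mitosis (-1.91) and MHC class II (-1.23) lie lowest, and the markers of erythroid cells (1.71) and macrophages (1.65) highest.

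The authors' deposited table for this comparison lists 265 genes, 126 higher and 139 lower in day 270 marked cells. Of these, 264 were tested here and 165 were called, which is 62.3% of the genes in the authors' deposited table and 84.2% of the 196 calls made here. None had the opposite sign, and 31 of the calls made here are not in the authors' deposited table. Both rest on the same libraries, so the overlap compares 2 ways of processing.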

How the data were processed

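Bone marrow plasma cells were sorted into 4 groups of 3 libraries. RNeasy Micro and TruSeq RNA kits were used, per the labels' protocols. The submitters' processing notes name the GRCm38 build and limma, without a version. The aligner, the counter and the annotation were not stated in the material at hand.

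Per the file headers, the authors' tables give CPM per library, with the authors' log2 fold changes and p-values beside them. The deposited count table holds 230 genes. Multiplying CPM by 1 total per library gave whole reads for 100% of the 131943 values under 1000 reads in all 12 libraries (tolerance 0.05, largest deviation 0.00798). The recovered reads matched 100% of the count table's cells. The totals, 7449468 to 15943547 reads, cover the genes of the table only, so the sequencing depth is unknown beyond them. Intervals and floors include counting error alone.

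The test was limma 3.58.1 in R 4.3.3 on log2(CPM + 0.5) with a trended prior, two-sided, with 1 coefficient for each group over all 12 libraries (8 residual degrees of freedom). Genes were filtered with filterByExpr (edgeR 4.0.16, recovered reads, minimum count 10), which kept 12704 and removed 1515. edgeR's quasi-likelihood test and DESeq2 1.42.0 on recovered reads, limma-voom, other scalings, filters and pseudocounts, a replicate block, the specimen as a random block and leaving libraries out were alternatives. The scripts were tested on simulated data. By their labels the 12 libraries come from 6 specimens, each giving a marked and an unmarked library of 1 day, and the fit treats them as independent. The 6 compared libraries come from different specimens, with no cage or sort date. The p-values and SEs rest on the spread between specimens within a group, pooled over all 4 groups. They do not measure the spread of the 6 compared libraries alone. Pairwise correlations were 0.944 to 0.950 in day 60 marked and 0.945 to 0.966 in day 270 unmarked cells, against 0.848 to 0.896 in day 270 marked cells. Replicate 1 libraries have neighbouring library numbers in all groups. In replicates 2 and 3 the unmarked libraries are numbered before the marked ones, so number and group cannot be told apart there.

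The comparison, the gene lists and the named genes were chosen with earlier results of these data known. The shares of all genes set beside list counts are therefore descriptive and are not tests of the lists. Named genes were called genes with groups that do not overlap, namely the 12 largest rises and 12 largest falls with a mean of at least 1 CPM in the higher group, the 12 most abundant of each, and called list members; the 2 most abundant members of lists without a call; and a fixed set that includes Mcl1, Prdm1, Cd74 and Jchain. Uncalled list members given by value were named after their values were seen. So were Clic5, Ctsk, Pdia5, Man1c1, Dsel, B3galnt1, Pomgnt2, St3gal6, Hs3st1, Nkg7 and the other markers at 0. Positions were taken from GENCODE M21 (14165 of 14219 identifiers found) and promoters from RefSeq. Some listed genes are not reported here.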

Additional observations from a re-analysis of the deposited data

How the results depend on the processing

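Against 101 genes called higher and 95 called lower, TMM scaling gave 161 and 169, totals without Jchain and ribosomal-RNA-like features (an alternative chosen after seeing the data) gave 149 and 156, and DESeq2 on recovered reads gave 278 and 295. The edgeR quasi-likelihood test gave 110 and 77. Only the 6 compared libraries gave 5 and 2. Leaving out 1 library gave 30 to 156 higher and 21 to 417 lower, and without day 270 marked replicates 2 and 3 together (also chosen after seeing the data) there were 17 and 23. Of the 196 calls, edgeR made 143, DESeq2 188 and limma-voom 118, and 38 were made under every alternative other than the 6-library fit and the one without both day 270 marked replicates. None of the 82 named genes that were called changed sign under any alternative, while 25 of the 46 named and not called did. With the specimen as a random block (chosen after seeing the data; estimated correlation 0.00235), 103 genes were called higher and 98 lower. Totals without Jchain and listed non-coding features moved the median of all genes to -0.25, from -0.11 as reported, and the other scalings left it at -0.10. By the labels, a replicate number pairs a marked with an unmarked library of 1 day. It does not pair the 2 compared groups, which share no specimen. Residuals of same-numbered libraries of these 2 groups correlated at 0.00167, -0.0123 and 3.7e-04. These values cannot speak to pairing within a day. With the replicate number as a block, 95 genes were called higher and 90 lower. The causes of these shifts were not tested. Depth limits scarce genes: the median SE was 0.73 for genes of 1 to 10 CPM, against 0.19 for those of 100 to 1000 CPM, and a gene without a read in a day 270 marked library may lie below its detection there.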
